A study of Mus musculus with 6 samples.

Results

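The adult Tshbcre sorted library was compared directly with the adult Lhbcre sorted library, which represent the lineages of the pituitary cells that make glycoprotein hormones. These are 2 of the 6 libraries of the series, and both were chosen by their labels alone. The Tshbcre cells came from 42 pooled pituitary glands of mice carrying a Cre recombinase driven by Tshb and a ROSA-YFP reporter, a yellow fluorescent protein switched on by Cre. The Lhbcre cells came from 7 pooled glands of mice carrying a Cre driven by Lhb and the same reporter. Both groups of mice were adult, 7 weeks old, and both libraries were made from the fluorescent fraction after dispersal with collagenase and FACS. A library from 1 gland of an adult mouse without these transgenes is given as background, and no age in weeks was recorded for this gland. The reporter stays on after recombination, so it marks cells that expressed the driver at any time and not only cells that express the hormone at harvest. The sources used here do not state the sex of the animals. Markers of sex differed between the libraries. Xist was higher in the Lhbcre library, and Ddx3y, Kdm5d and Eif2s3y of the Y chromosome were higher in the Tshbcre library. Sex and lineage therefore cannot be told apart in any difference given below.

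Each gene was measured as the sum of the FPKM (fragments for each kilobase of a transcript, scaled to the library's mapped fragments) of its annotated transcripts, divided by 1 scaling factor per library. Values below are scaled FPKM, a level per transcript length. Of 49823 gene names listed in both tables, 46802 were autosomal and formed the comparison. Among them, 15665 reached 1 scaled FPKM in at least 1 of the libraries, and 13460 of these were above 0 in both. Each group was 1 library, so no difference has a replicate and none was tested. The bounds deposited with each FPKM describe counting and transcript assignment inside a single library and nothing between animals. Differences are of log2(scaled FPKM + 1), Tshbcre minus Lhbcre, a scale that understates the difference of low genes, and folds are on the same scale. A gene was counted as apart at 4-fold or more, with 1 scaled FPKM or more in the higher library and more than 0 in both.

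Thyrotropin, luteinizing hormone and follicle-stimulating hormone are each a pair of subunits: a common alpha subunit encoded by Cga and a beta subunit encoded by Tshb, Lhb or Fshb. Thyrotropes make thyrotropin under the control of thyrotropin-releasing hormone from the hypothalamus and are held back by thyroid hormone. Gonadotropes make the gonadotropins under the control of gonadotropin-releasing hormone, activin and sex steroids. The lineages share the transcription factor GATA2, while POU1F1 acts in thyrotropes and NR5A1 in gonadotropes.

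The promoters of the 4 subunit genes are shown because the levels of these genes are the base of the comparison. Each is a window of 300 bases around the annotated start, from RefSeq on build GRCm38.p6, which is not the build of the deposited tables (mm39). Capitals mark matches of motifs, searched on both strands. The TATA box was searched as TATAAA. A site of GATA factors was searched as AGATAAG. The half-site that NR5A1 is known to bind was searched as AAGGTCA. The Tshb window is chr3:102782665-102782964 on the minus strand, the Lhb window chr7:45420696-45420995 on the plus strand, the Fshb window chr2:107059602-107059901 on the minus strand and the Cga window chr4:34893529-34893828 on the plus strand.
Tshb: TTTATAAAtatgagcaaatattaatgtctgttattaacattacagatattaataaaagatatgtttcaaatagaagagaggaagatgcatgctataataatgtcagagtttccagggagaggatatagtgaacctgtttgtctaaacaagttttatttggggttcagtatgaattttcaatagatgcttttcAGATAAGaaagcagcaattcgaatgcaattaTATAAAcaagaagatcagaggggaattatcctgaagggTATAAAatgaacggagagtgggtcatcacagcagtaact
Lhb: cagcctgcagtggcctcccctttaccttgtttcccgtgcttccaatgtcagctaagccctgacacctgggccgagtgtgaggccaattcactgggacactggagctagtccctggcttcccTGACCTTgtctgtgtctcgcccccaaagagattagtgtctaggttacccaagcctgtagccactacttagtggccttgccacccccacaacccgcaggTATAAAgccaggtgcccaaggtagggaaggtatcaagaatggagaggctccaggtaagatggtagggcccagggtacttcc
Fshb: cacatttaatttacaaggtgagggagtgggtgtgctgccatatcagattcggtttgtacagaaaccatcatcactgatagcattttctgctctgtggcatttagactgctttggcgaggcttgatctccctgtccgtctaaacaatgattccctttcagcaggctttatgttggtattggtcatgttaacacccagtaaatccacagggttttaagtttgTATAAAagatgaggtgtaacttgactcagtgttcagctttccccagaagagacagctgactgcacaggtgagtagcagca
Cga: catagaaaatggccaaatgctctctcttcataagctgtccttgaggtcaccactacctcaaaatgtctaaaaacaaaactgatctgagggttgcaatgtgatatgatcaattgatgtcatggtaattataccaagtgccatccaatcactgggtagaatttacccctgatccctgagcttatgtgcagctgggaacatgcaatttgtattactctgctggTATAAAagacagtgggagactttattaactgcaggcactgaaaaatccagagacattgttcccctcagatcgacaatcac

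The Tshb window holds the GATA motif with its first base at position -58 from the annotated start and a TATA box at -27. It also holds a TATA box at 12 and, at its 5′ end, overlapping matches at -248 and, on the opposite strand, -250. The Lhb window holds the NR5A1 half-site on the opposite strand, at -129, and a TATA box at -31. The Fshb and Cga windows hold a TATA box at -30 and neither of the other motifs. Of 32851 promoter windows of the same length, 3.04% hold the GATA motif, 4.72% hold the NR5A1 half-site and 13.6% hold the TATA box. A core of POU1F1 sites, ATGNATA, is held by 8.84% of all windows and by none of these 4. A match is a description of the sequence only.

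The Tshbcre library stood far above the Lhbcre library in the thyrotropin gene. Tshb (chromosome 3, 102684621 to 102718175, mm39) had a level of 1075 scaled FPKM in the Tshbcre library (deposited bounds 1028 and 1122) and at 9.05 in the Lhbcre library (bounds 7.90 and 10.3). The log2 difference was 6.74, a 107-fold difference, and the adult whole gland lay between them at 33.1. Tshb was the 7th most abundant protein-coding gene per length of the Tshbcre library and ranked 2592 in the Lhbcre library. In these pools of sorted cells, fewer cells of a type and less RNA per cell cannot be told apart.

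The gonadotropin genes did not show the mirror image. Lhb (chromosome 7, 45066912 to 45071279) stood at 2904 scaled FPKM in the Tshbcre library and at 2198 in the Lhbcre library, a log2 difference of 0.40, so the gene that drives Cre in the Lhbcre mice was no lower in the cells sorted by Tshbcre. Fshb (chromosome 2, 106886331 to 106889996) stood at 928 in the Tshbcre library (bounds 889 and 966) and at 216 in the Lhbcre library (bounds 214 and 219), a 4.27-fold difference with the Tshbcre library higher. Both genes were lower in the adult whole gland, at 637 and 180 scaled FPKM. Cga (chromosome 4, 34893779 to 34907374) was the most abundant protein-coding gene per length in both libraries, at 6546 in the Tshbcre library and 3649 in the Lhbcre library. The hormone gene of each driver thus stood above the whole gland in its own library, but Lhb did so in both libraries and did not set the Lhbcre library apart. The Tshbcre cells also held gonadotropin RNA, and the libraries are named here by their Cre driver. Whether single cells held RNA of both lineages or the sorted fraction held cells of both kinds cannot be told apart in these pools.

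**Figure D1:**
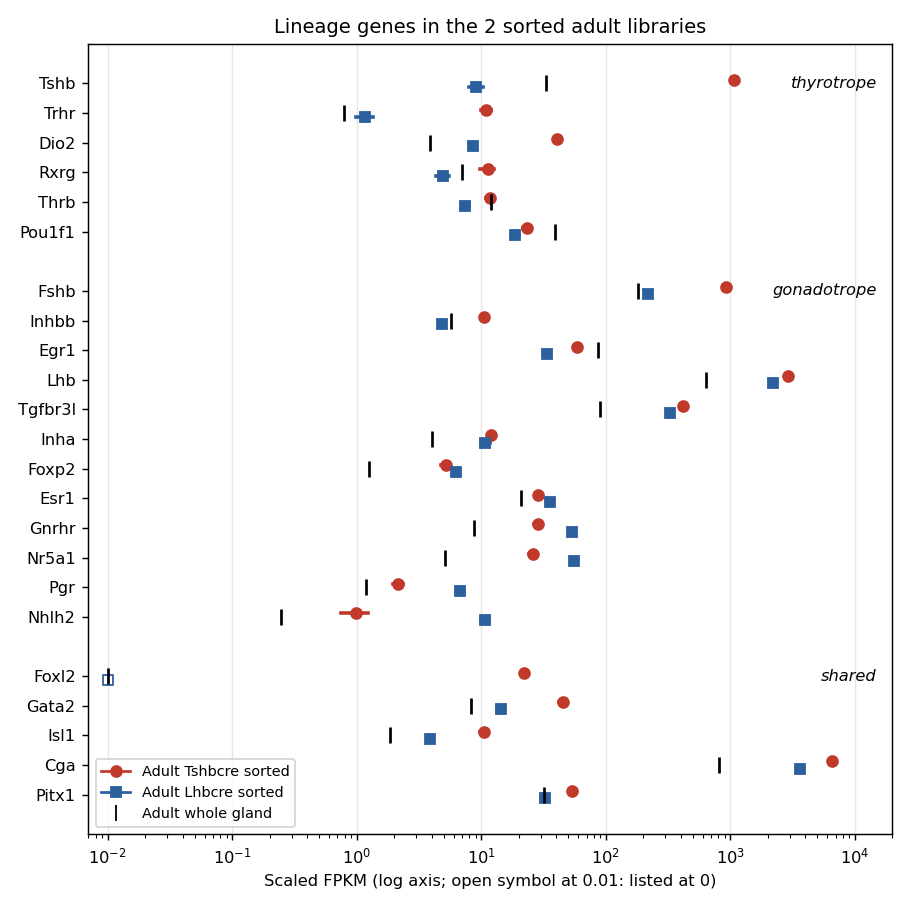
Scaled FPKM (log axis) of thyrotrope, gonadotrope and shared lineage genes in the adult Tshbcre library (red circles) and the adult Lhbcre library (blue squares), with horizontal bars for the deposited bounds and black ticks for the adult whole gland. Tshb lies at 1075 against 9.05 and Lhb at 2904 against 2198, and Nhlh2 is the gonadotrope gene farthest to the Lhbcre side, at 0.99 against 10.7.

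Across all 13460 genes above 0 in both libraries, 112 genes were 4-fold higher in the Tshbcre library (0.832% of those compared) and 156 were 4-fold lower (1.16%). The counts of genes 4-fold apart given below, for each list or family, are to be set beside these shares. The median log2 difference of all these genes was -0.03, and 84.4% lay within 2-fold. Of the protein-coding genes, 90 of 10146 were 4-fold higher (0.887%) and 77 were 4-fold lower (0.759%). Of 2417 genes of other classes, among them pseudogenes and small RNAs, 21 were 4-fold higher (0.869%) and 72 were 4-fold lower (2.98%). Deposited bounds did not overlap for 107 of the 112 higher genes and 142 of the 156 lower genes, and for 68.0% of all genes compared. A further 670 genes were high in the Tshbcre library and listed at 0 in the Lhbcre library, and 532 were high in the Lhbcre library and listed at 0 in the Tshbcre library. In the library at 0, an unnamed transcript lay in the locus of 231 and 255 of these, so a listed 0 is not read as absence. With genes at 0 included, 4.99% of 15665 genes were 4-fold higher and 4.39% were 4-fold lower.

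Genes of the thyrotrope list stood higher in the Tshbcre library. Of 6 members above 0 in both, 3 were 4-fold higher and none 4-fold lower, and all 6 had a positive log2 difference, with a median of 1.59 against -0.03 over all genes. Trhr, the receptor for thyrotropin-releasing hormone, stood at 10.9 scaled FPKM in the Tshbcre library and 1.17 in the Lhbcre library, 5.46-fold higher in the Tshbcre cells. The adult whole gland had 0.79. Dio2, the deiodinase that converts thyroxine to the active hormone, stood at 40.4 in the Tshbcre library (bounds 38.6 and 42.2) and 8.52 in the Lhbcre library (bounds 8.11 and 8.94), 4.34-fold higher. Rxrg, a retinoid X receptor known in thyrotropes, had 11.3 in the Tshbcre library and 4.91 in the Lhbcre library, and its log2 difference of 1.05 became 1.68 with assembled transcripts. These are unnamed transcripts of 200 nt or more. They were 51.9% of unnamed transcripts in the Tshbcre library and 4.25% in the Lhbcre library, so here and below this setting can add unequally to the libraries. Length was taken into account, here and below, by multiplying FPKM by length, with assembled transcripts included. The log2 difference of Trhr was then 3.93 in place of 2.45, and 2.96 with assembled transcripts alone. The deposited bounds of Tshb, Trhr, Dio2 and Rxrg did not overlap between the libraries, as for 68.0% of all genes compared.

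The transcription factors of this list were closer. Thrb, the thyroid hormone receptor of the negative feedback on Tshb, had 11.7 scaled FPKM in the Tshbcre library and 7.45 in the Lhbcre library. Pou1f1, the factor shared by somatotropes, lactotropes and thyrotropes, had 23.1 in the Tshbcre library and 18.8 in the Lhbcre library, a log2 difference of 0.29. With unnamed assembled transcripts of its locus added, Pou1f1 stood at 41.2 and 67.2, and the log2 difference was -0.69, so its direction depends on the transcripts counted. Sox14 did not reach the minimum level, at 0.51 in the Tshbcre library, and is listed at 0 in the Lhbcre library.

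Genes of the gonadotrope list were spread on both sides of 0. Of 12 members above 0 in both, 1 was 4-fold higher in the Tshbcre library (Fshb) and 1 was 4-fold lower (Nhlh2). The log2 difference was positive for 6 and negative for 6, with a median of -0.04, whose sign changed between -0.06 and 0.01 across the scalings tried. From the highest difference, the members ran Fshb, Inhbb, Egr1, Lhb, Tgfbr3l and Inha above 0, then Foxp2, Esr1, Gnrhr, Nr5a1, Pgr and Nhlh2 below 0.

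Among the receptors, Gnrhr, the receptor for gonadotropin-releasing hormone, stood at 28.4 scaled FPKM in the Tshbcre library and 53.2 in the Lhbcre library, a log2 difference of -0.88. The whole value was assigned to a transcript of 2482 nt in the Tshbcre library and to a transcript of 1528 nt in the Lhbcre library. FPKM is per length, and with FPKM multiplied by length and assembled transcripts included the log2 difference was -0.24. Esr1, the estrogen receptor, had 28.5 in the Tshbcre library and 35.7 in the Lhbcre library. Pgr, the progesterone receptor, had 2.15 in the Tshbcre library (bounds 1.96 and 2.34) and 6.80 in the Lhbcre library (bounds 6.44 and 7.16), 2.48-fold lower. Tgfbr3l, a coreceptor of inhibin B in gonadotropes, had 413 in the Tshbcre library and 325 in the Lhbcre library. Every gene of this paragraph was above the adult whole gland in both libraries.

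Among the transcription factors, Nr5a1, the nuclear receptor that defines gonadotropes, stood at 26.0 scaled FPKM in the Tshbcre library (bounds 24.3 and 27.7) and 55.5 in the Lhbcre library (bounds 52.8 and 58.1), 2.09-fold lower. The adult whole gland had 5.08. With assembled transcripts added, Nr5a1 stood at 55.7 in the Tshbcre library and 55.5 in the Lhbcre library, a log2 difference of 0.01, so the difference did not hold under that setting. The Nr5a1 locus held 1 unnamed transcript in the Tshbcre library and 0 in the Lhbcre library. Nhlh2, a basic helix-loop-helix factor needed for normal fertility in mice, stood at 0.99 in the Tshbcre library and 10.7 in the Lhbcre library, 5.89-fold lower, with the same value when assembled transcripts were added. Egr1, an immediate early factor that acts on Lhb downstream of gonadotropin-releasing hormone, had 58.5 in the Tshbcre library and 33.7 in the Lhbcre library, and its log2 difference of 0.78 became -0.09 with assembled transcripts. Foxp2, a forkhead factor, had 5.20 in the Tshbcre library and 6.23 in the Lhbcre library, and its log2 difference of -0.22 became -1.03 with assembled transcripts.

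Of the inhibin genes of the list, Inhbb, the beta B subunit of activin and inhibin, had 10.4 scaled FPKM in the Tshbcre library and 4.84 in the Lhbcre library, 1.96-fold higher. Inha, the inhibin alpha subunit, had 12.1 in the Tshbcre library and 10.8 in the Lhbcre library, and with assembled transcripts 12.1 and 13.6, so that its log2 difference of 0.15 became -0.16. Fst, the activin antagonist follistatin, was near 0 in both, at 0.02 in the Tshbcre library and 0.07 in the Lhbcre library. In the wider list of activin, inhibin and BMP signalling, none of 25 members was 4-fold apart in either direction, and the median was 0.04. Smad3, a signal transducer of activin, had 14.1 in the Tshbcre library and 24.4 in the Lhbcre library, and Tgfbr3, betaglycan, had 18.6 in the Tshbcre library and 17.5 in the Lhbcre library. Grem1, which encodes the BMP antagonist gremlin, stood at 16.7 in the Tshbcre library and is listed at 0 in the Lhbcre library. It was chosen after its values were seen.

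Of the 5 genes of the shared lineage list above 0 in both libraries, none was 4-fold apart, and the median log2 difference was 0.84. Gata2, a zinc finger factor that acts on Tshb and on the gonadotrope program, stood at 44.9 scaled FPKM in the Tshbcre library (bounds 42.4 and 47.5) and 14.4 in the Lhbcre library (bounds 13.4 and 15.3), 2.99-fold higher. Isl1, a LIM homeodomain factor of the thyrotrope lineage, had 10.5 in the Tshbcre library and 3.88 in the Lhbcre library. With assembled transcripts added, the log2 differences of Gata2 and Isl1 were 2.10 and 2.14, past 4-fold. Pitx1, a homeodomain factor of the whole anterior lobe, had 53.4 in the Tshbcre library and 32.2 in the Lhbcre library, and its log2 difference of 0.71 became 1.49 with assembled transcripts. The loci of Gata2, Isl1 and Pitx1 held 1, 2 and 3 unnamed transcripts in the Tshbcre library and 0 in the Lhbcre library. Foxl2, a forkhead factor of both lineages, had 22.1 in the Tshbcre library and is listed at 0 in the Lhbcre library, whose locus held an unnamed transcript. With assembled transcripts its values were 27.5 and 12.5 in the Tshbcre and Lhbcre libraries, a log2 difference of 1.08.

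The shares of transcripts within a gene differed for some of these genes. The transcript of 687 nt held 25.4% of Cga in the Tshbcre library and 10.4% in the Lhbcre library, the rest being the transcript of 691 nt. Of Tshb, the transcript of 557 nt held 98.3% in the Tshbcre library and 88.6% in the Lhbcre library. Of Nr5a1, the longer transcript of 2994 nt held 20.9% in the Tshbcre library and 19.2% in the Lhbcre library. Lhb, Fshb and Dio2 were assigned whole to the same transcript in both libraries. These shares are the estimates of the authors' program, and no error for them is given.

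The protein-coding genes farthest apart included ion channels, peptides and cell surface genes. By the rule that a gene had to stay 4-fold apart with assembled transcripts added and reach 5 scaled FPKM, 44 genes were higher in the Tshbcre library and 31 were lower, and the 15 farthest apart on each side are named in the plot of these genes. After Tshb, the largest log2 difference was that of Hecw2, a ubiquitin ligase gene, at 23.7 in the Tshbcre library and 1.20 in the Lhbcre library. Thy1, a cell surface glycoprotein of neurons and lymphocytes, stood at 42.7 in the Tshbcre library and 2.93 in the Lhbcre library, 11.1-fold higher. Wfdc2, a secreted protease inhibitor of epithelia, had 13.8 in the Tshbcre library and 0.73 in the Lhbcre library. The adult whole gland lay between the libraries for all 3 genes.

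Among higher genes of signalling, Cck, the cholecystokinin gene, stood at 20.7 scaled FPKM in the Tshbcre library (bounds 18.8 and 22.7) and 1.98 in the Lhbcre library (bounds 1.66 and 2.37), 7.27-fold higher. The adult whole gland had 0.41. Kcnk9, a leak potassium channel, stood at 29.0 in the Tshbcre library and 3.48 in the Lhbcre library, 6.70-fold higher. Grin3a, a subunit of the NMDA glutamate receptor, had 7.94 in the Tshbcre library and 0.50 in the Lhbcre library, and Srgap3, a GTPase-activating protein of the Slit and Robo pathway, had 17.4 in the Tshbcre library and 1.96 in the Lhbcre library. Kalrn, an exchange factor of small GTPases, had 12.2 in the Tshbcre library and 1.18 in the Lhbcre library, and its log2 difference of 2.59 became 0.64 with length taken into account. Pcbp2, an RNA-binding protein that overlaps Map3k12, had 107 in the Tshbcre library and 12.2 in the Lhbcre library, and Erlec1, a lectin of the endoplasmic reticulum, 42.1 in the Tshbcre library and 5.32 in the Lhbcre library. With length taken into account, the log2 difference of 3.04 for Pcbp2 became 1.97, under 4-fold, and those of Hecw2 and Erlec1 became 2.17 and 2.01, in place of 3.48 and 2.77. That of Grin3a became 3.91, in place of 2.57. The rest of the higher group were S100a11, a calcium-binding protein, at 47.5 in the Tshbcre library and 6.24 in the Lhbcre library, Gm32584 at 15.3 in the Tshbcre library and 1.77 in the Lhbcre library, and Cyp2f2 and C1qc, which are given with their cell types.

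Among the autosomal protein-coding genes named by this rule, Reln, which encodes the secreted protein reelin, lay farthest to the lower side. It stood at 0.14 scaled FPKM in the Tshbcre library and 19.9 in the Lhbcre library, 18.4-fold lower. The deposited bounds did not overlap, as for 68.0% of all genes compared. The adult whole gland had 0.26. In the list of axon guidance and reelin genes, Reln was the only member of 22 that was 4-fold apart, and the median was -0.06, which turned to 0.21 with assembled transcripts. The reelin receptors Vldlr and Lrp8 had 7.60 and 6.09 in the Tshbcre library and 8.48 and 3.42 in the Lhbcre library, and the log2 difference of Vldlr, -0.14, became -1.63 with assembled transcripts. With length taken into account, that of Reln was -6.48 in place of -4.20. Crtac1, a secreted protein of cartilage, had 1.16 in the Tshbcre library and 26.7 in the Lhbcre library, 12.8-fold lower.

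Of the 15 lower genes named by the rule, Gal, Penk, Vgf and Pgf encode secreted peptides or growth factors. Gal, the galanin gene, stood at 2.08 scaled FPKM in the Tshbcre library and 20.0 in the Lhbcre library, 6.80-fold lower. Penk, the proenkephalin gene, had 0.56 in the Tshbcre library and 8.72 in the Lhbcre library. Vgf, a granin-like precursor of secretory granules, had 1.93 in the Tshbcre library and 16.3 in the Lhbcre library, 5.89-fold lower. Pgf, placental growth factor, had 0.25 in the Tshbcre library and 7.33 in the Lhbcre library. Of 8 neuropeptide genes above 0 in both, 1 was 4-fold higher in the Tshbcre library (Cck) and 2 were 4-fold lower (Gal and Penk), with a median of -0.36.

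Enzymes were also among the lower genes. Adcy8, a calcium-stimulated adenylyl cyclase, stood at 0.24 scaled FPKM in the Tshbcre library and 7.58 in the Lhbcre library, 6.95-fold lower, and its log2 difference of -2.80 became -4.17 with length taken into account. Akr1c14, a hydroxysteroid dehydrogenase, had 0.71 in the Tshbcre library and 10.5 in the Lhbcre library, and Rnase1, a pancreatic-type ribonuclease, 0.04 in the Tshbcre library and 6.22 in the Lhbcre library. Rnd3, a small GTP-binding protein, had 1.14 in the Tshbcre library and 12.3 in the Lhbcre library, and Ank1, an ankyrin of the membrane skeleton, 1.01 in the Tshbcre library and 12.4 in the Lhbcre library. The short genes Atp5k, a subunit of ATP synthase, and Sem1, a subunit of the proteasome, stood at 2.84 and 7.67 in the Tshbcre library and 56.3 and 68.0 in the Lhbcre library. Frg1, which overlaps Asah1, had 0.66 in the Tshbcre library and 15.9 in the Lhbcre library, a log2 difference of -3.34 that became -1.87 with length taken into account. The adult whole gland lay between the libraries for 60 of the 77 protein-coding genes that were 4-fold lower and for 58 of the 90 that were 4-fold higher.

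**Figure D2:**
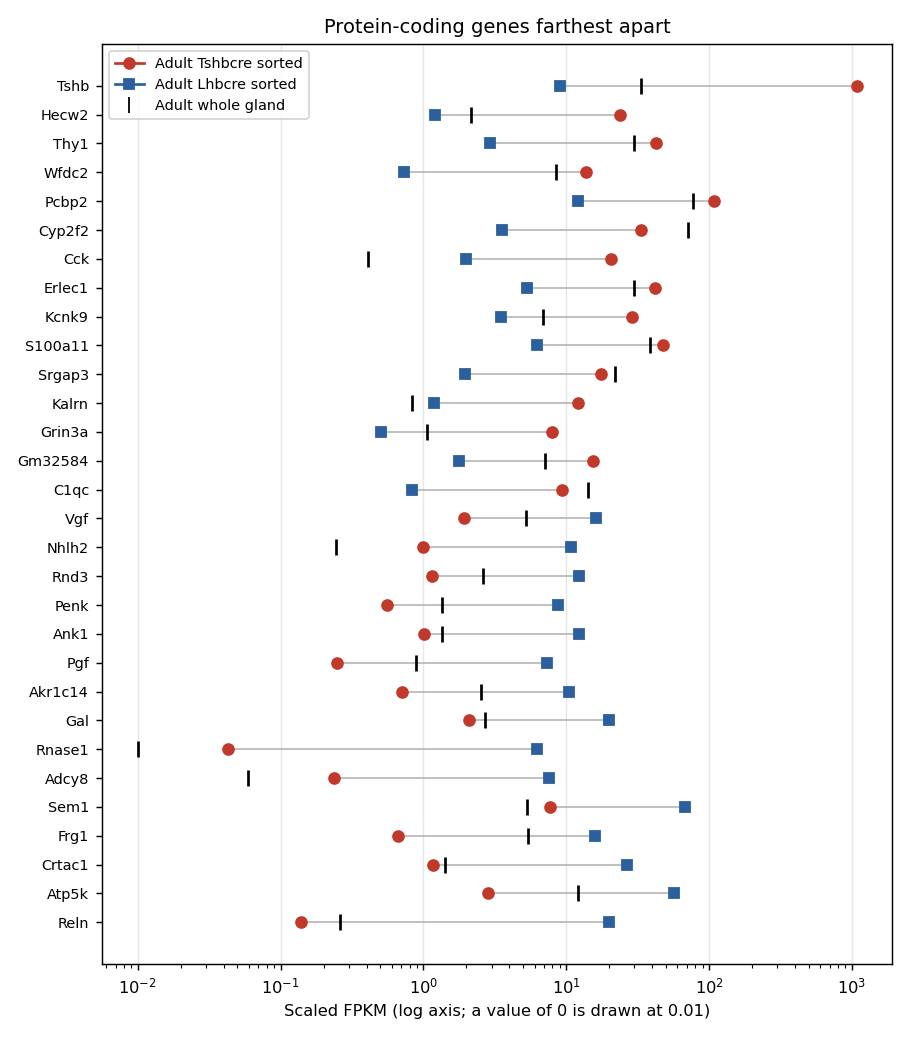
Scaled FPKM (log axis) of the 15 protein-coding genes farthest apart in each direction, in the adult Tshbcre library (red circles), the adult Lhbcre library (blue squares) and the adult whole gland (black ticks). The higher set runs from Tshb at the top to C1qc and the lower set from Vgf to Reln, whose Tshbcre value of 0.14 lies beside the whole gland value of 0.26.

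Receptors for hypothalamic and other hormones differed in a few members. Of 13 receptor genes above 0 in both, 2 were 4-fold higher in the Tshbcre library, and none was 4-fold lower (median 0.31). Beside Trhr, this was Drd4, a dopamine receptor, at 4.23 scaled FPKM in the Tshbcre library and 0.27 in the Lhbcre library. Sstr3, a somatostatin receptor, had 6.02 in the Tshbcre library and 11.4 in the Lhbcre library, and Igf1r, the receptor of insulin-like growth factor 1, had 13.5 in the Tshbcre library and 10.7 in the Lhbcre library. With assembled transcripts, Igf1r had 13.5 in the Tshbcre library and 20.5 in the Lhbcre library, so that the direction turned. With length taken into account, the median of the same 13 receptor genes was 0.39. The list median was -0.07 when members were chosen anew by that measure. The log2 difference of Drd4 was 3.04 with length, in place of 2.04. Among 20 genes of nuclear receptors and thyroid hormone handling, 2 were 4-fold higher in the Tshbcre library, none was 4-fold lower, and the median was 0.54. They were Dio2 and Vdr, the vitamin D receptor, which stood at 5.46 in the Tshbcre library and 0.38 in the Lhbcre library, a log2 difference of 2.23 that became 3.33 with assembled transcripts. Ncor1, a corepressor of thyroid hormone receptors, had 36.7 in the Tshbcre library and 14.4 in the Lhbcre library, with a log2 difference of 1.29 that became 0.56 with assembled transcripts. All 4 estrogen target genes had a negative difference, with a median of -1.42, and Gal was the only one 4-fold lower. Greb1 had 2.58 in the Tshbcre library and 9.32 in the Lhbcre library.

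Among pituitary transcription factors, 1 of 22 was 4-fold higher in the Tshbcre library and 2 were 4-fold lower, with a median of 0.17. Eya3, a coactivator known to act on Tshb in the response of mammals to day length, stood at 14.3 scaled FPKM in the Tshbcre library and 1.37 in the Lhbcre library, and with assembled transcripts at 14.3 and 11.5, so that its log2 difference of 2.69 became 0.30. The lower members were Nhlh2 and Neurod4, a basic helix-loop-helix factor, at 1.92 in the Tshbcre library and 13.3 in the Lhbcre library.

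Genes of the secretory granule were abundant in both libraries. Of 14 granin and processing genes, 1 was 4-fold higher in the Tshbcre library (Ptprn2) and 1 was 4-fold lower (Vgf), with a median of 0.39. With assembled transcripts the median was -0.12 for the same members and -0.02 with members chosen anew. Chga, chromogranin A, had 1155 scaled FPKM in the Tshbcre library (bounds 1148 and 1162) and 353 in the Lhbcre library (bounds 338 and 367), 3.27-fold higher. Scg2 and Chgb, which encode further granins, had 1391 and 729 in the Tshbcre library and 980 and 441 in the Lhbcre library. All 3 were lower in the adult whole gland, at 122, 193 and 209 for Chga, Scg2 and Chgb. Ptprn2, a granule membrane protein, had 86.3 in the Tshbcre library and 15.3 in the Lhbcre library, and its log2 difference of 2.43 became 0.53 with assembled transcripts.

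Exocytosis genes were near level, with 1 of 27 members 4-fold higher in the Tshbcre library, none 4-fold lower, and a median of 0.09. That member, Rph3al, an effector of RAB27 at granules, had 37.0 scaled FPKM in the Tshbcre library and 7.32 in the Lhbcre library, and its log2 difference of 2.19 became 0.01 with assembled transcripts. Snap25, a SNARE of the plasma membrane, had 63.0 in the Tshbcre library and 51.9 in the Lhbcre library. Rab27a, a GTPase of granules, and Syt4, a synaptotagmin, had 26.4 and 32.2 in the Tshbcre library and 37.8 and 37.6 in the Lhbcre library.

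Channel genes 4-fold apart are given beside the shares over all genes, 0.832% higher and 1.16% lower. Of 26 potassium channel genes, 1 was 4-fold higher in the Tshbcre library (Kcnk9) and none 4-fold lower (median 0.10). Kcnma1, the large-conductance calcium-activated channel, had 24.7 scaled FPKM in the Tshbcre library and 10.5 in the Lhbcre library, a log2 difference of 1.16 that became 0.31 with assembled transcripts. Of 19 calcium, sodium and HCN channel genes, 2 were 4-fold higher in the Tshbcre library and none 4-fold lower (median 0.30). These were the L-type calcium channels Cacna1d, at 41.7 in the Tshbcre library and 5.14 in the Lhbcre library, and Cacna1c, at 14.3 in the Tshbcre library and 0.82 in the Lhbcre library. Their log2 differences of 2.80 and 3.07 became 1.28 and 0.51 with assembled transcripts, under 4-fold for both.

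Of 45 genes of cAMP, G protein and calcium signalling, 1 was 4-fold higher in the Tshbcre library (Plcb4) and 1 was 4-fold lower (Adcy8), with a median of 0.29. This median became 0.02 with assembled transcripts. Plcb4, a phospholipase C, had 20.2 scaled FPKM in the Tshbcre library and 2.77 in the Lhbcre library, and a log2 difference of 0.10 with assembled transcripts. Gnas, the stimulatory G protein subunit, had 2066 in the Tshbcre library and 1164 in the Lhbcre library. Its transcript of 1484 nt held 66.9% in the Tshbcre library and 38.7% in the Lhbcre library. Rgs4, a regulator of G protein signalling, had 35.0 in the Tshbcre library and 55.5 in the Lhbcre library.

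Genes of protein folding in the endoplasmic reticulum were near level, with 1 of 23 members 4-fold higher in the Tshbcre library, none 4-fold lower and a median of -0.04, whose sign changed between -0.07 and 0.01 across scalings. The higher member was Sel1l, an adaptor of the degradation of misfolded proteins, at 20.2 scaled FPKM in the Tshbcre library and 1.98 in the Lhbcre library. With assembled transcripts its log2 difference of 2.83 became -0.27, the opposite direction. Hspa5, the main chaperone of the endoplasmic reticulum, had 227 in the Tshbcre library and 197 in the Lhbcre library, and Calr, calreticulin, 190 in the Tshbcre library and 302 in the Lhbcre library.

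Of 23 immediate early and heat shock genes, 2 were 4-fold lower in the Tshbcre library, none was 4-fold higher, and 19 had a negative difference, with a median of -0.48. The members 4-fold lower were Hspa1a, at 49.4 scaled FPKM in the Tshbcre library and 228 in the Lhbcre library, and Hspa1b, at 48.3 in the Tshbcre library and 217 in the Lhbcre library. They are near-identical inducible heat shock genes that share reads, so they are not counted as independent. Hspa8, the constitutive relative, had 158 in the Tshbcre library and 289 in the Lhbcre library. With assembled transcripts, Hspa8 had 158 in the Tshbcre library and 704 in the Lhbcre library, a log2 difference of -2.15 in place of -0.87, past 4-fold. Fos, an immediate early factor gene, had 74.9 in the Tshbcre library and 133 in the Lhbcre library.

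**Figure D3:**
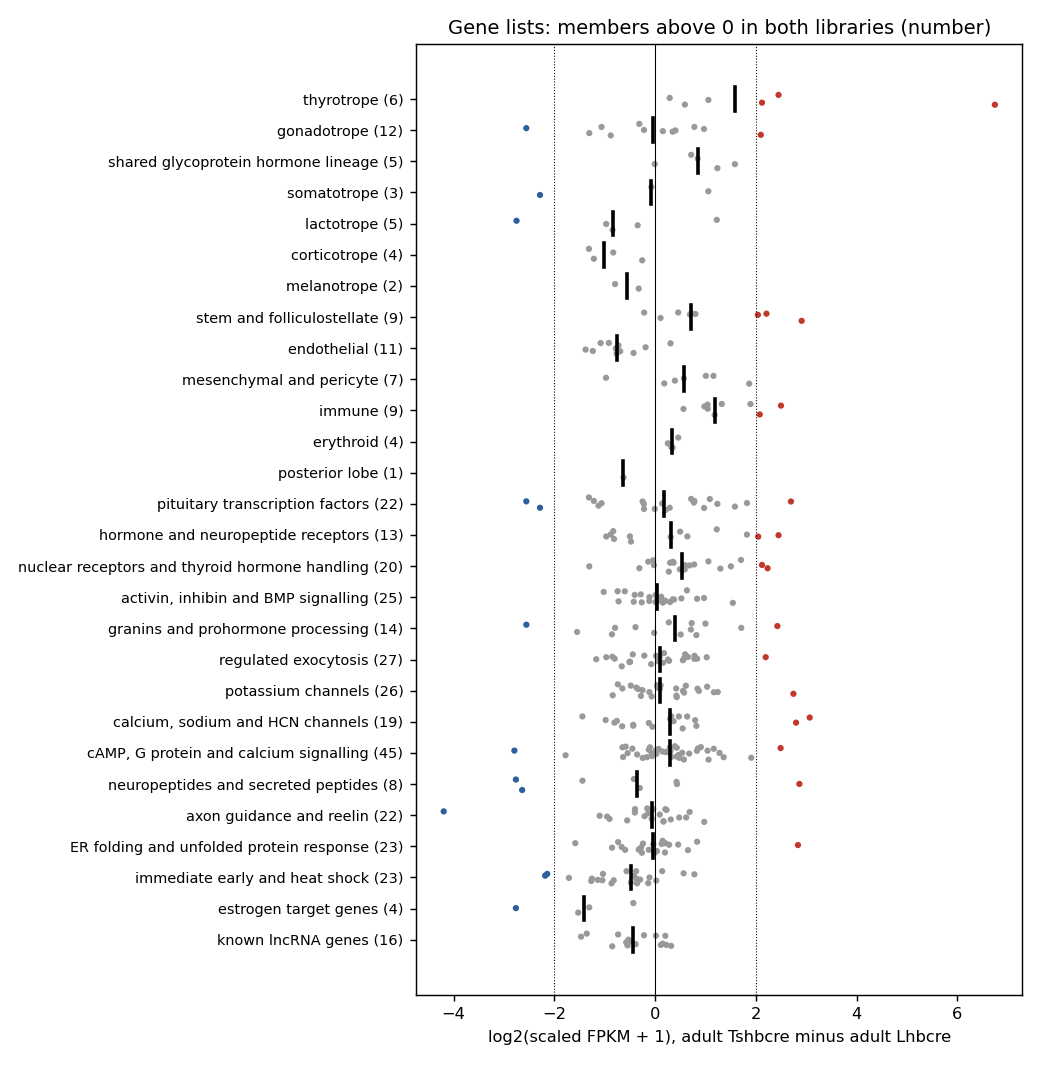
Log2 difference, adult Tshbcre minus adult Lhbcre, of each gene list member above 0 in both libraries (points, with the number of members in brackets), with the median of each list as a black bar and dotted lines at 4-fold. Red points are members 4-fold higher in the Tshbcre library and blue points members 4-fold lower, and the thyrotrope list has the median farthest to the right, at 1.59.

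Markers of other cell types differed between the libraries beside the lineage genes, and their part in the results above was not tested. Stem and folliculostellate genes stood higher in the Tshbcre library, with 3 of 9 members 4-fold higher, none 4-fold lower and a median of 0.71. The log2 difference was positive for 8 and negative for 1, Krt8, at 12.6 scaled FPKM in the Tshbcre library and 14.9 in the Lhbcre library. Mia had 15.4 in the Tshbcre library and 8.99 in the Lhbcre library. Cyp2f2, a cytochrome P450 of folliculostellate cells, had 33.2 scaled FPKM in the Tshbcre library and 3.56 in the Lhbcre library, and the adult whole gland had 71.0. Sox2, the stem cell factor, had 5.72 in the Tshbcre library and 0.45 in the Lhbcre library, and Aldh1a2, a retinaldehyde dehydrogenase, 11.1 in the Tshbcre library and 1.95 in the Lhbcre library. Lcn2, lipocalin, had 15.8 in the Tshbcre library and is listed at 0 in the Lhbcre library. The summed level of the 13 members was 114 in the Tshbcre library, 45.1 in the Lhbcre library, with 194 in the adult whole gland, and Fxyd3 is at 0 in both sorted libraries.

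Immune genes stood higher in the Tshbcre library in all 9 members above 0 in both, with 2 of them 4-fold higher, none 4-fold lower and a median of 1.18. The complement genes C1qc and C1qb, which macrophages express, had 9.31 and 11.2 scaled FPKM in the Tshbcre library and 0.83 and 1.89 in the Lhbcre library. The summed level of the 11 members was 64.6 in the Tshbcre library, 18.2 in the Lhbcre library, with 105 in the adult whole gland. Endothelial genes lay the other way, with no member of 11 4-fold apart and 10 with a negative difference, and a median of -0.77. Plvap, a gene of fenestrated endothelium, had 8.09 in the Tshbcre library and 16.2 in the Lhbcre library, and the adult whole gland had 63.1. The summed endothelial level was 21.8 in the Tshbcre library, 45.6 in the Lhbcre library, with 154 in the adult whole gland. Mesenchymal genes had no member of 7 4-fold apart and a median of 0.57. Dcn, decorin, had 6.62 in the Tshbcre library and 1.09 in the Lhbcre library, while Col1a2, a fibrillar collagen, had 11.3 in the Tshbcre library and 23.2 in the Lhbcre library. Their sums were 32.5 in the Tshbcre library, 31.1 in the Lhbcre library, with 158 in the adult whole gland. Globin genes were close, with Hbb-bs at 45.0 in the Tshbcre library and 37.7 in the Lhbcre library.

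Among other endocrine cells, Pomc, the precursor of corticotropin, stood at 260 scaled FPKM in the Tshbcre library and 312 in the Lhbcre library, against 1555 in the adult whole gland. The 4 corticotrope genes above 0 in both were all lower in the Tshbcre library with a median of -1.03, and none was 4-fold apart. Tbx19, the factor that activates Pomc, had 0.99 in the Tshbcre library and 3.96 in the Lhbcre library, and Neurod1, its partner, 2.03 in the Tshbcre library and 6.05 in the Lhbcre library, with a log2 difference of -1.22 that became -0.65 with assembled transcripts. Of 5 lactotrope genes, Akr1c14 alone was 4-fold lower and none 4-fold higher (median -0.85), and Drd2, the dopamine receptor that restrains prolactin, had 3.12 in the Tshbcre library and 7.08 in the Lhbcre library. With assembled transcripts, Drd2 had 7.25 in the Tshbcre library and 7.08 in the Lhbcre library, and the log2 difference of -0.97 became 0.03. Of 3 somatotrope genes, Neurod4 was 4-fold lower and none was 4-fold higher (median -0.08). Ghrhr, the receptor for growth hormone-releasing hormone, and Pappa2 had 6.69 and 4.67 in the Tshbcre library and are listed at 0 in the Lhbcre library, and with assembled transcripts their log2 differences were -1.05 and -0.58. Gh and Prl were not analysed here. The melanotrope list had 2 members above 0 in both, with a median of -0.56, and the posterior lobe list had 1, Col25a1, at 0.36 in the Tshbcre library and 1.13 in the Lhbcre library.

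The libraries also differed in markers of sex. Xist, the RNA of the inactive X chromosome of female cells, stood at 0.11 scaled FPKM in the Tshbcre library and 29.4 in the Lhbcre library. On the Y chromosome, Eif2s3y, Ddx3y and Kdm5d had 6.17, 3.20 and 3.23 in the Tshbcre library and 0.50, 0.01 and 0.01 in the Lhbcre library. Uty, also on the Y chromosome, is listed at 0 in the Tshbcre library and had 0.63 in the Lhbcre library, and with assembled transcripts it had 7.53 in the Tshbcre library and 0.63 in the Lhbcre library. In these markers the adult whole gland was like the Tshbcre library, with Xist at 0.06, Eif2s3y at 10.3, Ddx3y at 2.61 and Kdm5d at 3.04. By Xist, Ddx3y and Kdm5d, the Tshbcre library had a male pattern and the Lhbcre library a female pattern. Lineage, the pool of animals and sex by these markers cannot be told apart. This holds for every difference given here, including those of the gonadotropin genes and the estrogen target genes.

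Of 897 long non-coding RNA genes above 0 in both, 1 was 4-fold higher in the Tshbcre library (0.111%) and 7 were 4-fold lower (0.78%). Over all genes the shares were 0.832% and 1.16%, and over protein-coding genes 0.887% and 0.759%. The higher gene was Gm51921 (chromosome 11, 103955935 to 103965529), at 184 scaled FPKM in the Tshbcre library (bounds 176 and 192) and 31.0 in the Lhbcre library (bounds 29.6 and 32.5), and at 312 in the adult whole gland. Of the 7 lower genes, 4 held with assembled transcripts added. Gm42186 (chromosome 3, 17171297 to 17193926) had 96.4 in the Tshbcre library and 5927 in the Lhbcre library. Its annotated transcript has 73 nt, and its deposited bounds in the Tshbcre library ran from 0 to 233. 4933406B17Rik had 0.21 in the Tshbcre library and 5.59 in the Lhbcre library, 1700112J16Rik 0.56 in the Tshbcre library and 7.42 in the Lhbcre library, and Gm51570, which overlaps Stox2, 2.18 in the Tshbcre library and 14.8 in the Lhbcre library. With length taken into account, the log2 differences of 1700112J16Rik and Gm51570 were -1.30 and -1.63, under 4-fold, in place of -2.43 and -2.31. The log2 difference of 4933406B17Rik was -2.44, and became -3.20 with assembled transcripts and -3.70 with length taken into account.

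Of 16 known lncRNA genes above 0 in both, none was 4-fold apart, and the median log2 difference was -0.45, against -0.03 over all genes. With assembled transcripts the median of this list was -0.20 for the same members and -0.10 with members chosen anew. Meg3 and Rian, imprinted transcripts of the Dlk1-Dio3 region on chromosome 12, had 624 and 291 scaled FPKM in the Tshbcre library and 902 and 340 in the Lhbcre library. Foxl2os, transcribed beside Foxl2, had 24.7 in the Tshbcre library and 37.3 in the Lhbcre library, against 1.59 in the adult whole gland. Norad had 48.0 in the Tshbcre library and 68.5 in the Lhbcre library, and Gas5, a host of small nucleolar RNAs, had 20.2 in the Tshbcre library and 57.8 in the Lhbcre library.

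Transcript length moved with the difference. For protein-coding genes whose longest transcript was under 600 nt the median log2 difference was -0.35 (173 genes), and for genes of 8000 nt or more it was 0.17 (1295 genes). The classes between had medians of -0.16, -0.12, -0.02 and 0.06 in order of length. Of 281 genes of any class under 300 nt, 11 were 4-fold higher in the Tshbcre library and 60 were 4-fold lower, with a median of -0.43. Depth as a multiple of that of the adult whole gland was 1.16 in the Tshbcre library and 2.23 in the Lhbcre library, and unnamed transcripts had a median length of 207 nt in the Tshbcre library and 52 nt in the Lhbcre library. The part of these values in the differences of short genes such as Atp5k, Sem1 and Gm42186, or of long genes such as Kalrn and Cacna1c, was not tested. Of the protein-coding genes 4-fold apart, 45 of 90 higher genes and 31 of 77 lower genes remained so with assembled transcripts added.

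**Figure D4:**
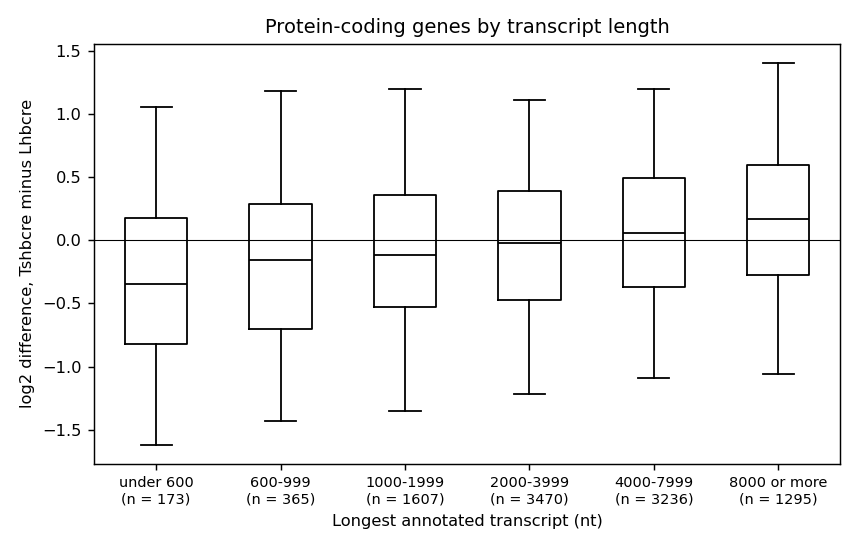
Log2 difference, adult Tshbcre minus adult Lhbcre, of protein-coding genes above 0 in both libraries by the length of the longest annotated transcript, with the number of genes under each class. The boxes give the median and the quartiles, and the medians run from -0.35 under 600 nt to 0.17 at 8000 nt or more.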

How the data were processed

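The deposited tables are isoform tables, 1 per library, with 1 line per transcript. Per the submitters' processing notes, the tools were Cufflinks, Bowtie2 and FastQC and the build was mm39, with no versions stated. Each line gives the FPKM computed by the authors, its bounds, a status and a coverage signal. The median ratio of deposited coverage to FPKM, over annotated transcripts above 1 FPKM, was 3.10 in Tshbcre and 5.97 in Lhbcre. It served as relative depth, since no read total is stated. Ribosomal RNA was depleted from an input of 250 ng, per the labels' protocols.

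FPKM was summed over the transcripts of a gene name and divided by the median of ratios over the 5808 genes that reached 1 FPKM in each of the 6 libraries (factors 1.00 and 0.967). Autosomal names listed in both tables were kept, and 3021 other names were left out. RefSeq and GENCODE annotation of GRCm38 gave biotypes (matched on accession for 33792 genes, on symbol for 11500, on synonym for 1 and on GENCODE name for 53, with 1456 unmatched), and 20482 genes were coding and 11807 lncRNA. Log2(scaled FPKM + 1) was compared between 1 library per group, without a test. Assembled transcripts of 200 nt or more were added as an alternative where a locus held 1 named gene. No source states whether counting used strand, so overlapping and antisense genes cannot be told apart. Near-identical copies (Hspa1a and Hspa1b, Hba-a1 and Hba-a2) share reads.

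Named genes were the members of the thyrotrope, gonadotrope and shared lists (1 member of the shared list is not reported here), the 15 coding and up to 8 lncRNA genes farthest apart on each side that stayed 4-fold apart with assembled transcripts (at 5 and 1 scaled FPKM), and from each other list up to 6 members 4-fold apart and 3 of the highest level. Other genes named (Grem1, Lcn2, Fos, Foxl2os, Gas5, Vldlr, Lrp8, Ghrhr and Pappa2) were chosen after their values were seen. Members and lists were chosen with earlier results of these data known. The scripts were checked on simulated data and used Python 3.11.15, pandas 2.3.3, numpy 2.4.6 and matplotlib 3.10.9. Promoter windows came from RefSeq on GRCm38.p6, and their coordinates were not mixed with mm39.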

Additional observations from a re-analysis of the deposited data

How the results depend on the processing

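No paired analysis was possible because each group was 1 library, and for the same reason no library could be left out. Of the 120 named genes compared, 53 were 4-fold apart. All 53 held under the 3 other scalings. They also held with the pseudocount of 0.1, which was fixed in advance, since a smaller pseudocount can only enlarge a difference. Of the 53, 41 held under every alternative run on single genes, but many had been chosen because they held with assembled transcripts. The other minimum levels, the length limit and the inclusion of genes at 0 were not among the alternatives run on single genes. Of all protein-coding genes 4-fold apart, 45 of 90 higher and 31 of 77 lower genes held with assembled transcripts. The counts of 112 higher and 156 lower genes became 375 and 523 with a pseudocount of 0.1, and 782 and 688 with genes at 0 included. For genes of 300 nt or more the lower count was 96. The share of counted genes that were higher was 41.8%, and 55.1% for FPKM times length with assembled transcripts, and 51.3% for genes of 300 nt or more. With length, the shared lineage median was 1.40. Members of a list were chosen anew in each alternative run. With assembled transcripts the somatotrope median was -0.67 and Sel1l reversed to -0.27. With a pseudocount of 0.1 the medians were -1.59 for corticotrope, 1.24 for stem and -1.41 for posterior lobe genes. With a minimum of 5 scaled FPKM they were 1.38 for stem, 1.16 for mesenchymal, 1.70 for immune, -0.50 for receptor (opposite in sign) and -2.64 for neuropeptide genes. The neuropeptide value is that of Penk, with only Cck and Gal left beside it. The posterior lobe list had no member left. The causes of these shifts were not tested, beyond fewer genes passing the higher minimum and the length limit. The length limit and the length-weighted sum were chosen after seeing the data. FPKM without read counts gives no counting error for gene sums, and deposited bounds were summed over transcripts.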

Other observations

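Genes on the X chromosome were outside the autosomal comparison, and the genes named here were chosen after their values were seen. Of 547 X-linked genes above 0 in both, 2 were 4-fold higher in the Tshbcre library and 8 were 4-fold lower, with a median log2 difference of -0.07. Xkrx, a relative of the XK membrane protein, stood at 0.58 scaled FPKM in the Tshbcre library and 48.7 in the Lhbcre library, and at 0.55 in the adult whole gland. The log2 difference was -4.97, larger than that of any autosomal protein-coding gene on the lower side of the named set. Ints6l stood at 15.6 in the Tshbcre library and 2.18 in the Lhbcre library. With assembled transcripts added its values were 28.8 in the Tshbcre library and 10.5 in the Lhbcre library. Rlim, a ubiquitin ligase gene that acts in X inactivation, stood at 1.97 in the Tshbcre library and 12.6 in the Lhbcre library. With assembled transcripts added its values were 11.7 in the Tshbcre library and 12.6 in the Lhbcre library.

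Gene families of short transcripts were also examined after seeing the data. Of 85 cytosolic ribosomal protein genes, none was 4-fold apart, 71 had a negative log2 difference and the median was -0.57. Of 57 replication-dependent histone genes, 1 was 4-fold higher in the Tshbcre library (H3c15) and 2 were 4-fold lower (H2bc18 and H4c14), with a median of -0.35. Of 84 genes of the mitochondrial respiratory chain, Atp5k alone was 4-fold lower, none was 4-fold higher and the median was -0.22. Eef1a1, a translation elongation factor gene, stood at 339 scaled FPKM in the Tshbcre library and 612 in the Lhbcre library, and Rpl41, a ribosomal protein gene, at 134 and 485 in the Tshbcre and Lhbcre libraries. Resp18, a gene of neuroendocrine granules, lay the other way, at 689 in the Tshbcre library and 202 in the Lhbcre library. Dlk1, which encodes a Notch ligand relative, had 324 in the Tshbcre library and 164 in the Lhbcre library.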
